A study of Mus musculus with 6 samples.

Results

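The genes described here are 32 mouse genes of myeloid cells and of innate sensing: Toll-like receptors and their adaptor, other sensors, growth factor and Fc receptors, kinases, transcription factors and effector proteins that are best known from macrophages, neutrophils, dendritic cells and B cells. They were measured in regulatory T cells (Treg cells), by ATAC-seq, in which a transposase cuts accessible DNA. The members are the genes named in a fixed list, and their peaks were chosen by position alone. A peak belonged to a member when its midpoint lay in the gene body, or when it lay between genes and the member was the nearest protein-coding gene within 100 kb (RefSeq, mm10). By this rule the 32 genes, of 21883 protein-coding genes in all, held 59 of 38258 WT peaks and 62 of 36182 KO peaks.

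Both groups were C57BL/6 mice that carried Foxp3-IRES-YFP-Cre, so YFP and Cre recombinase were made from the Foxp3 gene, the lineage factor of Treg cells. The WT group was Bcl11b w/w and the KO group Bcl11b f/f, in which Cre removes the floxed part of Bcl11b, a zinc-finger factor of the T lineage, in cells that express Foxp3. CD4+YFP+ cells were sorted from spleen and draining lymph nodes, 100000 cells were lysed per sample, and each group had 3 samples. Neither the age of the mice nor the deleted part of Bcl11b is stated in these sources. Bcl11b itself had 6 shared peaks, 5 WT-only and 5 KO-only by the same assignment rule, counts that do not check the deletion. Each group was deposited as 1 list of peaks for its 3 samples together. No value per sample exists for any result below, so no spread between replicates was measured and no difference has a replicate check. A peak with no overlapping peak in the other list is called WT-only or KO-only, and these peaks together are called genotype-specific. Absence from a list means that no peak was called, and the site may still have been open below the calling threshold. In sorted bulk cells, a site open in few cells and a site weakly open in many cannot be told apart.

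Toll-like receptors recognise microbial lipids, proteins and nucleic acids, and most of them signal through the adaptor MyD88 to NF-kB and interferon regulatory factors. In the myeloid lineage PU.1 (encoded by Spi1), C/EBP alpha, C/EBP beta and IRF8 set up the open chromatin at receptors, Fc receptors and granule proteins. Treg cells are T cells and do not make most of these proteins in quantity, although T cells are known to use some of them, among them several Toll-like receptors, MyD88 and IRF8.

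Most member genes had only a few peaks, and the peaks were concentrated at a small number of genes. Of the 32 members, 23 had a peak in either list (71.9%, exact 95% interval 53.3 to 86.3%), beside 67.0% of all protein-coding genes. The members with a peak had a median of 2 WT and 2 KO peaks, as did all genes with a peak. Over the members 43 peaks were shared, 19 were KO-only and 16 were WT-only. The KO-only share of genotype-specific peaks was 54.3% (36.6 to 71.2%), against 45.2% (44.5 to 45.9%) over all protein-coding genes, and the interval for the members holds that value. The median member had a KO-only minus WT-only difference of 0 peaks, as had the median of all genes. The intervals cover counting error only.

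Cebpb, Tlr1 and Irf8 alone held 21 of the 43 shared peaks. KO-only peaks were more numerous at 10 of the 23 members with a peak (43.5%, 23.2 to 65.5%), beside 20.2% of all genes with a peak. WT-only peaks were more numerous at 8 (34.8%, 16.4 to 57.3%), beside 26.8%. Fcgr2b and Cd14 were the members with shared peaks alone, 2 of 23 (8.70%, 1.07 to 28.0%), beside 42.9%. Members with no shared peak numbered 7, beside 13.9%: Tlr3, Tlr4, Myd88, Csf3r, Lyz2, S100a9 and Itgax. Most members with a peak thus had a genotype-specific one, in either direction, while their KO-only and WT-only totals were near each other. The difference at these members was 1 peak, except at Myd88, Fcgr1 and Tlr7. Counted by peak, 72.9% of the members' WT peaks were shared (59.7 to 83.6%), beside 71.6% over all genes. Of their KO peaks 69.4% were shared (56.3 to 80.4%), beside 75.4%. With no replicates, none of these shares was tested.

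**Figure D1:**
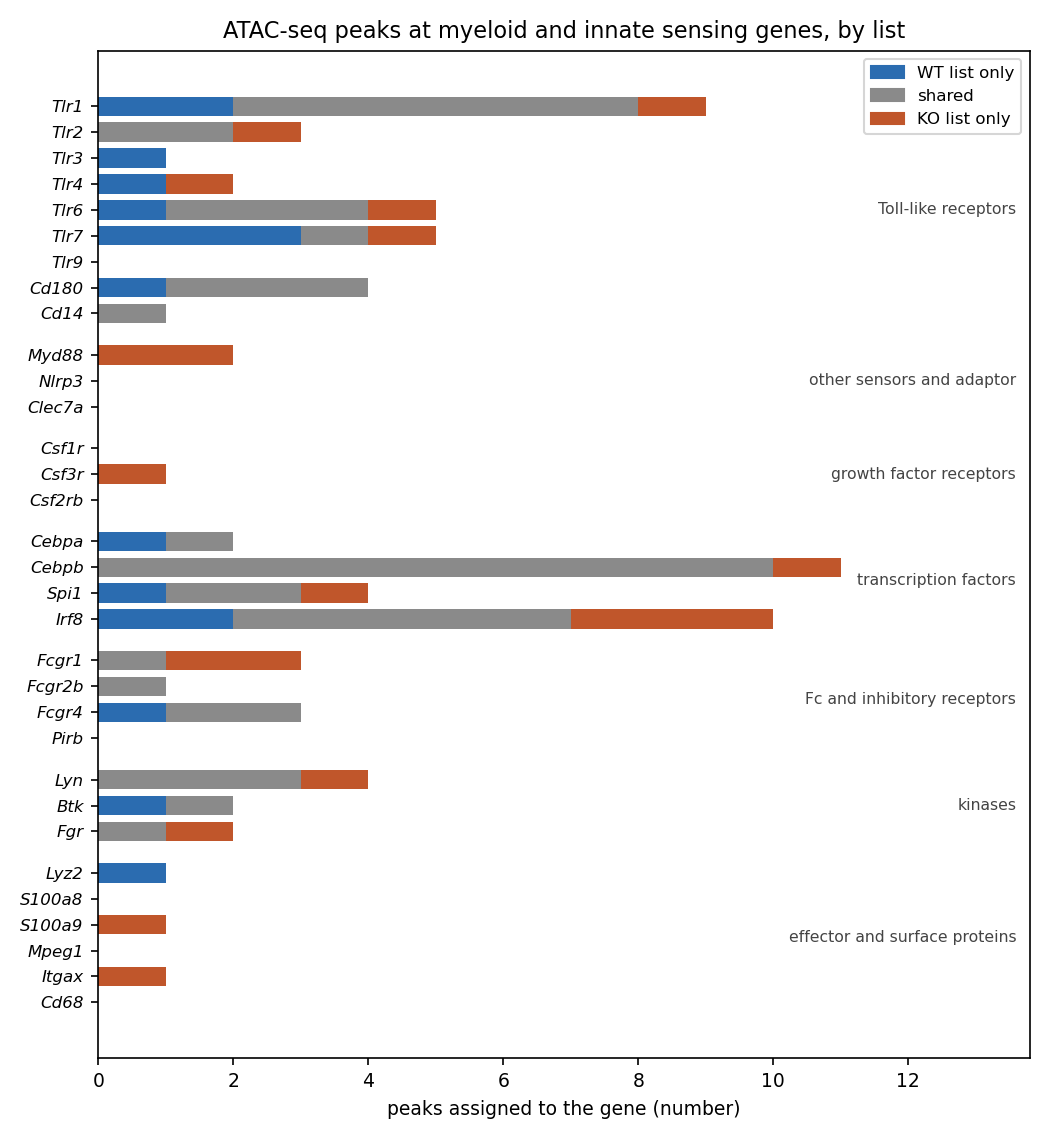
Number of peaks assigned to each of the 32 genes (horizontal axis, peaks), grouped by role. Blue is WT-only, grey is shared and orange is KO-only; each shared peak is drawn once. Cebpb (10 shared), Tlr1 (6) and Irf8 (5) have the longest grey bars, 9 genes have no bar, and Myd88 has KO-only peaks alone.

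Where a peak lay over a promoter, the sequence shows the bases under the called peak. Nearly all peaks of a list had the same width, so the edges of a peak need not mark the limits of open DNA. RefSeq promoter windows (build GRCm38.p6, with mm10 coordinates), from 250 bases before to 50 after a transcription start, were matched for 25 of the 32 members. Spi1, Tlr4, Cd14, Csf2rb, Csf1r, Tlr7 and Lyn were not matched. A peak of both lists lay over a window at 6 of the 25 members, Cebpa, Cebpb, Irf8, Tlr1, Tlr2 and Tlr6, beside 41.6% of all genes with a window. At Myd88 a KO peak alone lay over the window (beside 2.71% of all genes) and at Tlr3 a WT peak alone (beside 3.18%). The other 17 had no peak over a window, beside 52.5%. Of the windows below, Myd88, Tlr3 and the farther upstream of the matched Tlr6 starts are shown because the peak was called in 1 list. That Tlr6 start lies inside the gene body. Cebpb, Irf8 and Tlr1 are shown as promoters under shared peaks. Each runs 5′ to 3′ on the gene's strand, and capitals mark the bases under the peak, or, for a shared peak, under the peaks of both lists.
Myd88, minus strand, chr9:119339969-119340268, KO-only: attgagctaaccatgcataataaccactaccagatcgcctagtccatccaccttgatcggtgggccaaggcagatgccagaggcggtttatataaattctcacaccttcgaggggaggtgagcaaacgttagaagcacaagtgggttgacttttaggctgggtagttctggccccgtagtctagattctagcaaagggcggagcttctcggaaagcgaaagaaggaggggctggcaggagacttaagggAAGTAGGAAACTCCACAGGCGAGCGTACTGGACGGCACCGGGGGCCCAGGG
Tlr3, minus strand, chr8:45410331-45410630, WT-only: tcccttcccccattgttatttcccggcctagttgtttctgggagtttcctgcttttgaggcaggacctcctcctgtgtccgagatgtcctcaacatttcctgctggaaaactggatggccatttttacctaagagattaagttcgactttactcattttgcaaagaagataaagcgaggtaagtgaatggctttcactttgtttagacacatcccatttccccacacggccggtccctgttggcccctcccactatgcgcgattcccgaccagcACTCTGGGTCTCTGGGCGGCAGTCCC
Tlr6, minus strand, chr5:64959999-64960298, KO-only: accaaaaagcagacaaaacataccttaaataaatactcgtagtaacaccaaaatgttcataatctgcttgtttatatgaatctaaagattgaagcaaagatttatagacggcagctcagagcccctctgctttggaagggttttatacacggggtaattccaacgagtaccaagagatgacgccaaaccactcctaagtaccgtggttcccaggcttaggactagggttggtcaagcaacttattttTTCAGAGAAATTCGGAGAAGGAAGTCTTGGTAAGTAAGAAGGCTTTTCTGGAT
Cebpb, plus strand, chr2:167688665-167688964, shared: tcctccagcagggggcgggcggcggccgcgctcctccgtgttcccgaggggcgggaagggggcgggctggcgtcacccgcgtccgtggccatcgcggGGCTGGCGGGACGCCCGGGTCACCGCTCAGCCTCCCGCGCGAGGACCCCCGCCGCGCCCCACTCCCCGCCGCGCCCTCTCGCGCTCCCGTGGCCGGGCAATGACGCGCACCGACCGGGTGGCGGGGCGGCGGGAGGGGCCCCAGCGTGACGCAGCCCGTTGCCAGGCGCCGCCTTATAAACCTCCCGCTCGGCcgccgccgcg
Irf8, plus strand, chr8:120736108-120736407, shared: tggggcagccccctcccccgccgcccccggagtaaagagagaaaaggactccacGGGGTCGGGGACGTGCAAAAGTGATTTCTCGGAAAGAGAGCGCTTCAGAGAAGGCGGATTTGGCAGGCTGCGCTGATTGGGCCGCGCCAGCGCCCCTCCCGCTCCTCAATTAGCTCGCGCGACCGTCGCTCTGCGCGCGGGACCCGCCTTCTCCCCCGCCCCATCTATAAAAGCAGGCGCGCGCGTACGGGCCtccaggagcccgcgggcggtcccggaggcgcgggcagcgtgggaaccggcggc
Tlr1, minus strand, chr5:64933509-64933808, shared: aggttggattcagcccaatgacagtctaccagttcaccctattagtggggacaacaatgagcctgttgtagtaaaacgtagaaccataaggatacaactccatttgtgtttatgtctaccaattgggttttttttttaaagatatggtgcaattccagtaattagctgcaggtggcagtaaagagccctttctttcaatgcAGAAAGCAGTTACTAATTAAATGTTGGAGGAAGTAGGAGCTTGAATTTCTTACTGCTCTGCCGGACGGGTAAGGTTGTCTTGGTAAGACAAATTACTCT

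These windows differed in base composition. Cebpb and Irf8 were rich in GC (80.7% and 70.0%, with 50 and 38 CpG dinucleotides), whereas the windows printed for Tlr6 and Tlr1 each had 40.3% GC, with 7 and 3 CpG. The windows of Myd88 (54.0%, 13 CpG) and Tlr3 (51.0%, 10 CpG) lay between. Members with a promoter peak in both lists had a median of 64.7% GC and those with none 49.3%, with 62.7% and 50.7% over all genes. In these medians each gene counts by its window of highest GC, which need not be the window under the peak. The capitals of the Myd88 window cover 51 bases, from 1 base upstream of the transcription start to the window's 3′ end, so most of that peak lay inside the gene. Those of the Tlr3 window cover 26 bases, all downstream of a start that lies inside the gene body.

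The 12 letter strings of transcription factor motifs searched on both strands had few matches in these windows. The PU.1 string GAGGAAGT was found in 5 of the 31 member windows, at Fcgr4, Pirb, S100a8, Tlr1 and Tlr9, and in 3.13% of all 21262 windows. In the Tlr1 window above it begins 23 bases before the start, inside the capitals, and it was the only match to this string under a peak. At the other 4 genes no peak lay over the window. The AP-1 string TGACTCA, with its reverse complement TGAGTCA, was found at Cd68, Itgax and Tlr9 (4.66% of all windows) and the GC box GGGGCGGGG at Irf8 (15.4%). The Runx string TGTGGTTT was found at Lyz2 (1.61%) and the NF-kB string GGGAATTTC at S100a9 (0.230%). The strings TGTGGTCA (Runx, 1.20%), CCGGAAGT (ETS core, 5.15%), TTGCGCAA (0.221%), TTGCGAAA (0.188%) and TTGCATAA (C/EBP, 0.790%) and GGGACTTTC (NF-kB, 0.357%) were in no member's window.

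Among the receptors and co-receptors of the Toll-like family, 8 of 9 had a peak, with 9 WT-only peaks, 5 KO-only and 16 shared. Tlr1 and Tlr6, which encode partners of TLR2 in the recognition of bacterial lipopeptides and lie next to each other on chromosome 5, held 9 of the 16 shared peaks. Tlr1 (64924680 to 64933600) carried 6 shared peaks, 2 WT-only and 1 KO-only. The shared peak at its start (WT list, 64933389 to 64933607) stood at 59.7% of the way down the WT list and at 90.1% down the KO list. These places read the row order of a list as running from strong to weak peaks, an inference that no label states. A WT-only peak of Tlr1 (64905974 to 64906192) lay 67 bp from its KO-only peak (64905714 to 64905906). The other WT-only peak lay inside the gene (64932405 to 64932623), late in the list at 92.2%. Tlr6 (64953092 to 64970942) carried 3 shared peaks, 1 WT-only and 1 KO-only, all of them with midpoints inside the gene. The KO-only peak of Tlr6 (64959859 to 64960051), over the start printed above, lay 553 bp from the nearest WT peak. One shared peak of Tlr6 also lay inside the overlapping gene Fam114a1, so it cannot be given to Tlr6 alone.

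Tlr2, the lipopeptide receptor itself (chromosome 3, 83836272 to 83841824), had a shared peak over its start (WT list, 83841511 to 83841729), at 44.4% of the WT list and 53.6% of the KO list. A second shared peak lay 21.4 kb above the gene. Its KO-only peak (83845275 to 83845467) lay 3.55 kb above the gene and 3.54 kb from the nearest WT peak. Cd14, a co-receptor for lipopolysaccharide, had 1 shared peak, within the gene. Cd180, a Toll-like receptor homologue best known from B cells, had 3 shared peaks between 14.9 and 48.4 kb below the gene and 1 WT-only peak 95.1 kb below it, and none within the gene.

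The remaining receptors of the family had few or no shared peaks. Tlr4, the lipopolysaccharide receptor (chromosome 4, 66827551 to 66846581), had 1 KO-only peak over its lower end (66827477 to 66827669, at 68.0% of the KO list) and 1 WT-only peak 45.2 kb below the gene, late in the list at 92.1%. No WT peak lay closer to the KO-only peak than 45.0 kb. Tlr3, a receptor of double-stranded RNA (chromosome 8, 45395665 to 45411075), had 1 WT-only peak at its upper end (45410138 to 45410356, at 65.8% of the WT list), with the nearest KO peak 64.7 kb away. Tlr7, a receptor of single-stranded RNA on the X chromosome (167303380 to 167330574), carried 3 WT-only peaks, 1 KO-only and 1 shared. A surplus of at least 2 WT-only peaks, as here, was found at 8.04% of all genes with a peak. The WT-only peaks of Tlr7 at 167330320 to 167330538 and 167330930 to 167331148 lay at the upper end of the gene, 1.55 and 2.16 kb from the nearest KO peak, at 72.3% and 57.4% of the WT list. Its KO-only peak (167328575 to 167328767) lay inside the gene, at 92.8% of the KO list. Tlr9, a receptor of CpG DNA, had no peak; the nearest KO and WT peaks lay 3.38 and 10.4 kb from it, at neighbouring genes.

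Myd88, the adaptor of most Toll-like receptors (chromosome 9, 119335934 to 119340018), had 2 KO-only peaks and none in the WT list. The KO-only peak over its start (119339827 to 119340019) stood at 28.5% of the KO list, earlier than the other 18 KO-only peaks of the members, which stood between 40.8% and 99.6%. The nearest WT peak lay 1.06 kb away and belonged to the shared peak at the lower end of the neighbouring gene Acaa1a. The other KO-only peak of Myd88 (119334461 to 119334653) lay 1.38 kb below the gene and stood at 60.7%. A surplus of at least 2 KO-only peaks was found at 5.20% of all genes with a peak, and among the members at Myd88 and Fcgr1. Nlrp3, the inflammasome sensor, and Clec7a, the beta-glucan receptor Dectin-1, had no peak; the nearest peak lay 35.2 kb from Nlrp3 and 3.94 kb from Clec7a.

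**Figure D2:**
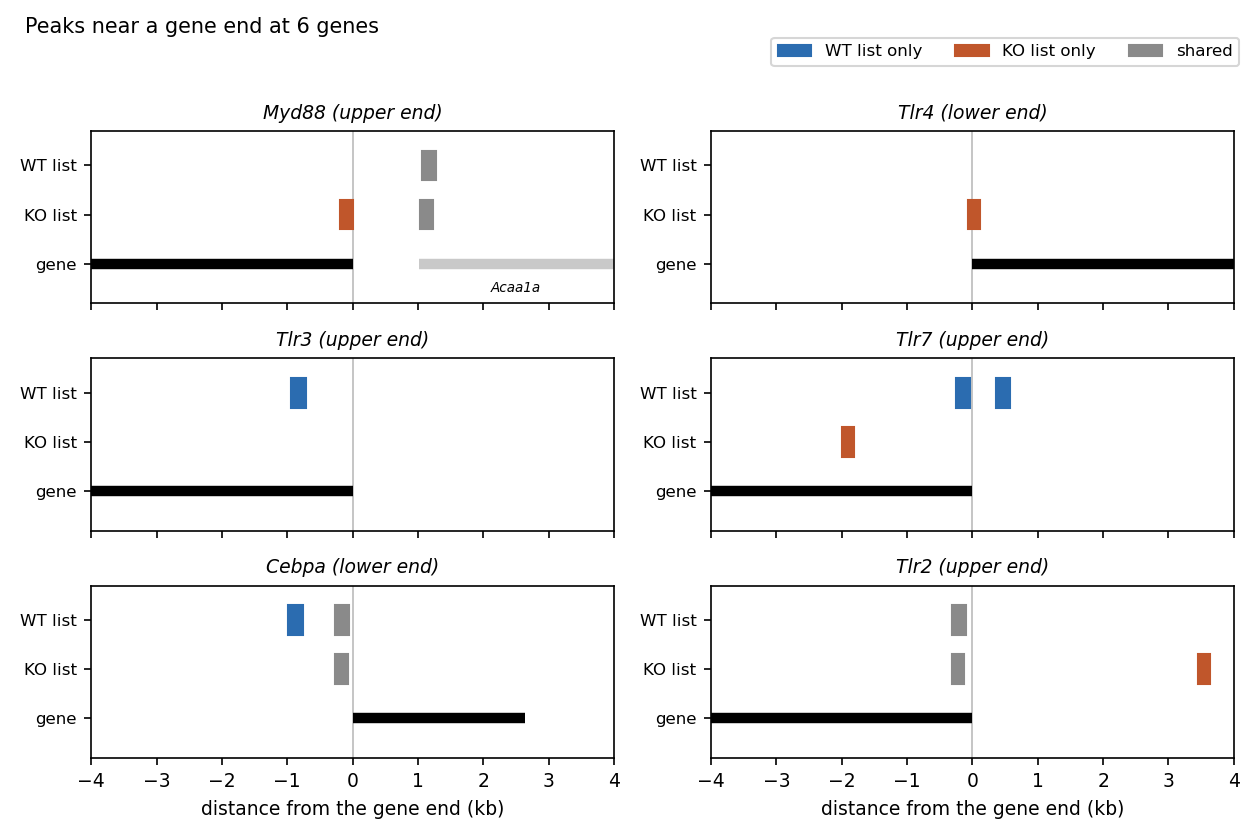
Peaks of both lists within 4 kb of a gene end at 6 genes (horizontal axis, kb from that end; black, the named gene; pale grey, a neighbouring gene). Boxes are peaks to scale, blue WT-only, orange KO-only and grey shared. At Myd88 and Tlr4 the box over the gene end is in the KO list alone, at Tlr3 and Tlr7 the boxes at the end are in the WT list alone, and at Cebpa and Tlr2 a grey box lies at the end in both lists.

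The transcription factors and the Toll-like family held 18 and 16 of the 43 shared peaks. All 4 transcription factor genes had a peak, with 18 shared peaks, 4 WT-only and 5 KO-only. Cebpb, a factor of myeloid and inflammatory gene expression (chromosome 2, 167688915 to 167690432), carried 10 shared peaks, 1 KO-only and none WT-only. The shared peak over its start (WT list, 167688755 to 167688973) stood at 25.9% and 34.5% of the WT and KO lists. The Cebpb peaks ran far into the gene-poor interval above the gene. The highest placed were those at 167775250 to 167775468 (9.40% and 7.41%) and at 167777902 to 167778120 (15.7% and 13.7%), 84.9 and 87.6 kb above Cebpb. They lay inside the noncoding genes Gm32287 and Gm14321, so nearness alone ties them to Cebpb. The KO-only peak (167754067 to 167754259, at 88.4%) lay 63.7 kb above the gene.

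Irf8, a factor of dendritic cells, monocytes and B cells that activated T cells also make (chromosome 8, 120736358 to 120756694), carried 5 shared peaks, 2 WT-only and 3 KO-only. The shared peak over its start (WT list, 120736138 to 120736356) stood at 37.9% and 40.5% of the lists. Below the gene, the WT-only peak at 120725247 to 120725465 lay 58 bp from the KO-only peak at 120725524 to 120725716, and the WT-only peak at 120716522 to 120716740 lay 146 bp from the KO-only peak at 120716183 to 120716375. With peaks closer than 500 bp counted as shared, Irf8 kept a surplus of 1 KO-only peak. The third KO-only peak (120832004 to 120832196, at 87.5%) lay 75.4 kb above the gene. Over all members, 4 of 16 WT-only and 3 of 19 KO-only peaks lay closer than 500 bp to a peak of the other list, beside 19.8% of WT-only and 27.9% of KO-only peaks in the genome.

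Spi1, which encodes PU.1, the main factor of the myeloid lineage (chromosome 2, 91082374 to 91115759), had 2 shared peaks inside the gene, 1 of them near its lower end (WT list, 91083050 to 91083268, at 51.7% of the WT and 32.9% of the KO list). Below the gene lay 1 WT-only peak (91078476 to 91078694) and 1 KO-only peak (91080880 to 91081072), 3.79 and 1.40 kb from it. Cebpa, the factor of granulocyte and monocyte progenitors (chromosome 7, 35119293 to 35121928), had 1 shared peak over its promoter (39.7% and 54.2%) and 1 WT-only peak (35118310 to 35118528, at 51.8%) 0.874 kb from the gene.

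**Figure D3:**
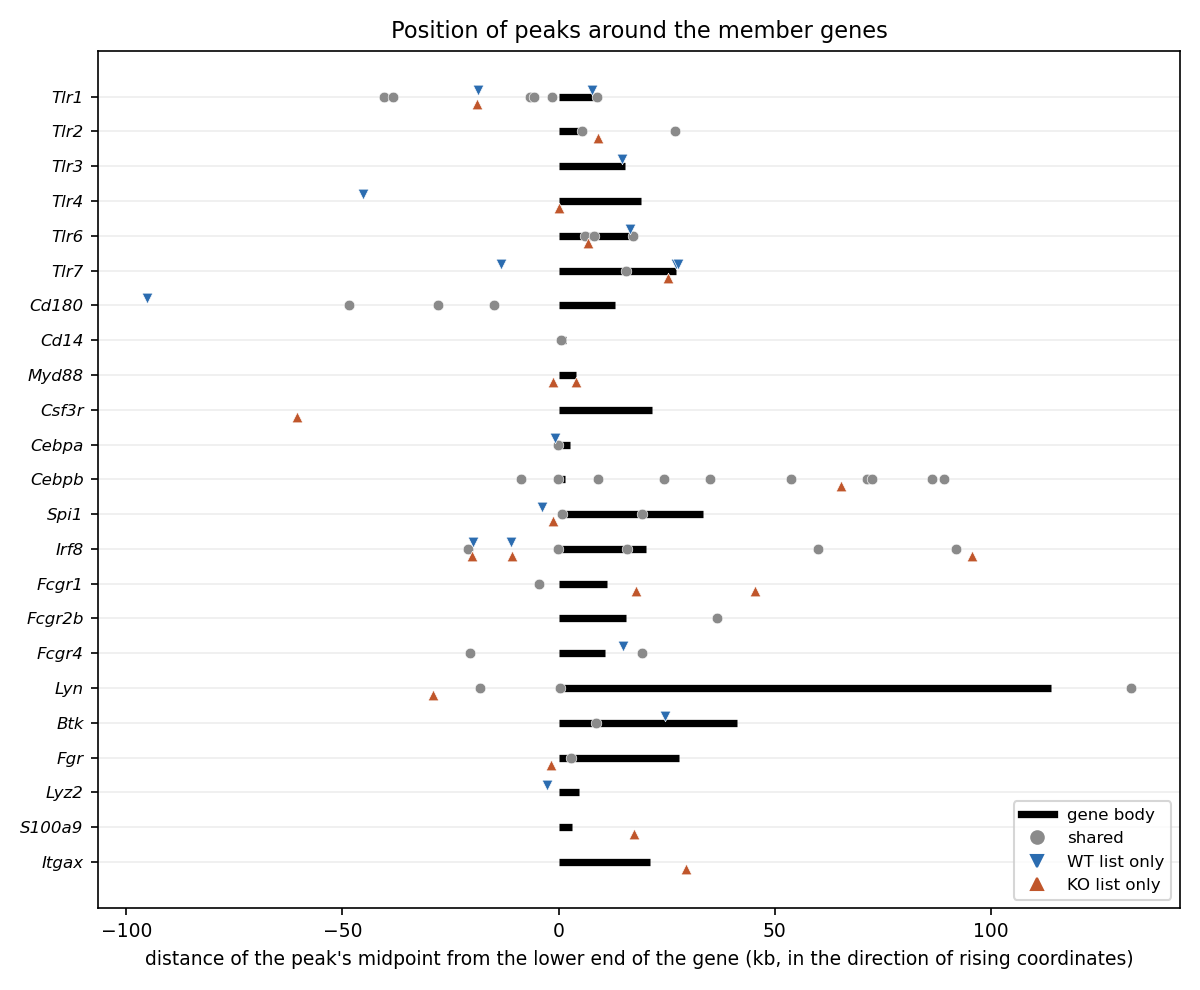
Midpoints of all peaks of the 23 members with a peak, by distance from the lower end of the gene (horizontal axis, kb, in the direction of rising coordinates). The black bar is the gene body; grey circles are shared peaks, blue triangles WT-only and orange triangles KO-only. The row of Cebpb has shared peaks out to nearly 90 kb above the gene, and the paired triangles below Irf8 and Tlr1 are the neighbouring peaks of the 2 lists.

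At Fc and inhibitory receptors 3 of 4 genes had a peak, with 4 shared peaks, 1 WT-only and 2 KO-only, and none of these peaks lay inside a gene body or within 1 kb of a gene end. Fcgr1, the high-affinity receptor of IgG (chromosome 3, 96282909 to 96293969), had 1 shared peak 4.61 kb below the gene and 2 KO-only peaks above it (96300827 to 96301019 and 96328185 to 96328377). The KO-only peaks stood at 96.3% and 99.6% of the KO list, among its last rows. Fcgr4, an activating IgG receptor of myeloid cells, had 2 shared peaks and 1 WT-only peak (chromosome 1, 171033719 to 171033937). That WT-only peak stood at 24.3%, the earliest of the 16, and lay 4.07 kb above Fcgr4, inside the noncoding gene Gm35090. The inhibitory receptor Fcgr2b had 1 shared peak 21.0 kb above the gene, and its neighbour Fcgr4 began 21.8 kb from that peak, so the peak is nearly as close to either. Pirb, an inhibitory receptor of myeloid and B cells, had no peak; the nearest, at Rps9, lay 8.25 kb away in the WT list and 8.31 kb in the KO list.

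The kinases Lyn, Btk and Fgr, which act below immune receptors, and for Lyn and Btk below the B cell receptor, carried 5 shared peaks, 1 WT-only and 2 KO-only. Lyn (chromosome 4, 3678068 to 3791612) had 3 shared peaks, 1 of them at its lower end (WT list, 3678224 to 3678442, at 53.6% of the WT and 30.1% of the KO list). Its KO-only peak (3648891 to 3649083) lay 29.1 kb below the gene at 40.8% of the KO list. Fgr had 1 shared peak in the gene (67.8% and 47.9%) and 1 KO-only peak (chromosome 4, 132972215 to 132972407) 1.78 kb below it. Btk had 1 shared and 1 WT-only peak, both in the gene body. A further shared peak within 1 kb of the lower end of Btk lay closer to Timm8a1 and was counted there.

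Growth factor receptors and effector proteins were nearly empty. Of Csf1r, Csf2rb and Csf3r, the receptors or receptor chains of macrophage, granulocyte-macrophage and granulocyte growth factors, Csf3r alone had a peak. It was a KO-only peak 60.6 kb below the gene (chromosome 4, 125962771 to 125962963), at 97.8% of the list, and peaks of both lists lay closer to Csf3r (1.95 kb in the WT list) but belonged to Mrps15. The nearest KO peaks lay 14.4 kb from Csf1r and 55.5 kb from Csf2rb, and the nearest WT peaks 37.0 and 55.4 kb. Lyz2, the lysozyme of myeloid cells, had 1 WT-only peak 2.58 kb below the gene at 98.0%. The calprotectin gene S100a9 had 1 KO-only peak 14.4 kb above it at 85.7%, and its partner S100a8 had none. Itgax, the integrin CD11c of dendritic cells, had 1 KO-only peak (chromosome 7, 128158911 to 128159103) 8.35 kb above the gene at 53.7%, with the nearest WT peak 28.6 kb away. It lay inside the noncoding gene Gm17831. Mpeg1, the pore-forming protein perforin-2, and Cd68, a lysosomal protein of macrophages, had no peak, although peaks of neighbouring genes lay near them in both lists. The nearest to Mpeg1, at Dtx4, lay 0.989 kb away in the WT list and 1.09 kb in the KO list, and the nearest to Cd68, at Mpdu1, lay 1.6 and 1.39 kb away.

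Shared peaks of the members stood later in the lists than shared peaks in general, and peaks of all 3 classes lay between genes more often. Shared peaks of the members had a median place of 54.6% in the WT list and 58.6% in the KO list, against 38.2% and 42.0% for all shared peaks. Genotype-specific peaks of the members had earlier medians than all such peaks of the lists, 67.2% against 76.8% for WT-only and 68.0% against 72.3% for KO-only. Fewer of them stood in the first 50% of their list, 2 of 19 KO-only (10.5% against 25.7%) and 2 of 16 WT-only (12.5% against 17.6%). In the WT list 27 of the 43 shared peaks (62.8%) lay between genes, against 26.6% of shared peaks of all genes. Most of these 27 lay at Cebpb, Tlr1 and Irf8, so a few loci weigh heavily in that share. Gene length was not taken into account. KO-only peaks lay between genes in 15 of 19 cases (78.9% against 33.9%) and WT-only peaks in 9 of 16 (56.2% against 33.5%). Within 1 kb of a gene end lay 9 shared peaks (20.9% against 35.8%) and 2 KO-only peaks (10.5% against 17.9%), whereas for WT-only peaks the share was above that of all genes, with 4 of 16 (25% against 14.2%). A gene-end peak in either list was found at 13 of the 23 members with a peak, beside 70.8% of all genes with a peak. It was in the KO list alone at Myd88 and Tlr4, beside 4.07%, and in the WT list alone at Tlr3 and Tlr7, beside 4.52%. Peaks between genes were assigned by nearness, which does not show the gene a site acts on.

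Within the shared peaks, the place differed between the lists in both directions. The KO place minus the WT place had a median of 3.32 percentage points over the 43 shared peaks of the members (quartiles -6.98 and 12.1), against 2.59 over all shared peaks (quartiles -3.46 and 10.8). Peaks at least 20 points earlier in the KO list numbered 5, beside 5.68% of all shared peaks: 2 at Cebpb and 1 each at Irf8, Lyn and Fcgr4. Those of Cebpb (WT list, 167760166 to 167760384 and 167761291 to 167761509) stood at 93.4% and 97.5% of the WT list and at 60.5% and 66.3% of the KO list. That of Irf8 (WT list, 120715360 to 120715578), below the gene, stood at 44.9% and 23.6%. Peaks at least 20 points later numbered 4, beside 10.7%: 2 at Tlr1 and 1 each at Tlr6 and Irf8. The Irf8 peak that stood later, inside the gene (WT list, 120752005 to 120752223), stood at 49.8% of the WT and 74.5% of the KO list. The lists differ in length and hold no peak height, so a difference in place is not a measured change in accessibility.

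**Figure D4:**
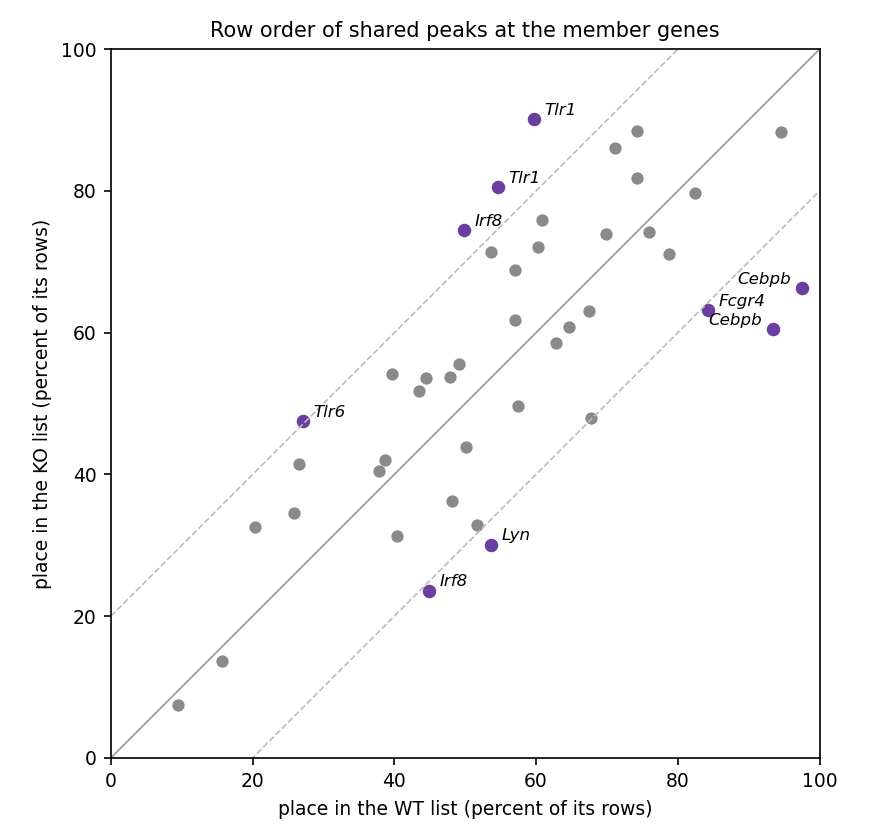
Place of the 43 shared peaks of the member genes in the WT list (horizontal axis) and in the KO list (vertical axis), each as a percent of the list's rows, with the top of a list at 0. The solid line marks equal places and the dashed lines a difference of 20 points; named purple points lie beyond them, 5 below and 4 above.

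The further innate sensing list and the further myeloid list had KO-only shares near that of the members. The further innate sensing list had more genes with shared peaks alone than the members, whereas the further myeloid list was nearer to the members. Further innate sensing genes, such as Toll-like receptors and adaptors outside the 32, had a peak at 24 of 27 genes, with 52 shared peaks, 14 WT-only and 14 KO-only. More KO-only peaks were found at 5 of them, more WT-only peaks at 6 and shared peaks alone at 9, where the 23 members had 10, 8 and 2. Unc93b1, which brings nucleic acid-sensing Toll-like receptors to endosomes, carried 2 KO-only and 2 shared peaks. Further myeloid genes had a peak at 23 of 33, with 37 shared peaks, 21 WT-only and 24 KO-only. Of these, 8 had more KO-only peaks, 7 had more WT-only peaks and 4 had shared peaks alone. The integrin gene Itgam and the transcription factor gene Klf4 each carried 3 KO-only peaks and no WT-only peak, and Fcer1g, an adaptor of Fc receptors, carried 2. The chemokine receptor gene Ccr2, the NADPH oxidase gene Cybb and the scavenger receptor gene Marco each carried 2 WT-only peaks and no KO-only peak. The KO-only shares were 50% (30.6 to 69.4%) and 53.3% (37.9 to 68.3%).

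Markers of the cell types that a sort could carry over were counted by the same rule. The 10 genes that define T cells and Treg cells all had a peak, with 39 shared, 12 WT-only and 14 KO-only. Ikzf2, the Treg factor Helios, had 7 KO-only against 4 WT-only peaks, and the co-stimulatory receptor gene Cd28 had 2 against 4. Of the 9 macrophage and monocyte genes 7 had a peak, with 7 shared, 8 WT-only and 3 KO-only, and Adgre1 and Csf1r had none. Without the 4 of these that are among the 32 genes, 7 WT-only peaks and 1 KO-only peak remained. Of the 10 neutrophil genes 3 had a peak, with 2 shared, none WT-only and 2 KO-only. Both KO-only peaks of that list were those of Csf3r and S100a9, and Mpo and Elane had no peak. The 8 dendritic cell genes, Itgax among them, had 13 shared peaks, 5 WT-only and 7 KO-only. Of the 10 B cell genes 7 had a peak, with 10 shared, 3 WT-only and 7 KO-only. Ms4a1 and Cd79a had none, whereas the B cell kinase gene Blk had 3 KO-only peaks, the factor gene Pax5 had 2, and neither had a WT-only peak. In all, 3 B cell genes had more KO-only and 2 had more WT-only peaks, namely Ebf1 (2 WT-only against 1 KO-only) and Cr2 (1 WT-only and none KO-only). The 8 NK cell genes had 15 shared peaks, 5 WT-only and 11 KO-only. The T-box factor gene Eomes and the perforin gene Prf1 each had 3 KO-only against 1 WT-only, and the receptor gene Klrk1 had 2 KO-only and none WT-only. In all, 4 NK cell genes had more KO-only peaks, Klrb1c had 2 WT-only against 1 KO-only, and Gzmb had 1 of each. The KO-only share was 27.3% for the macrophage and monocyte list, 58.3% for dendritic cells and 53.8% for T and Treg cells. It was 70% for B cells, 68.8% for NK cells and 100% for neutrophils, all from few peaks. The part of other cells in the peaks of the members was not tested.

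**Figure D5:**
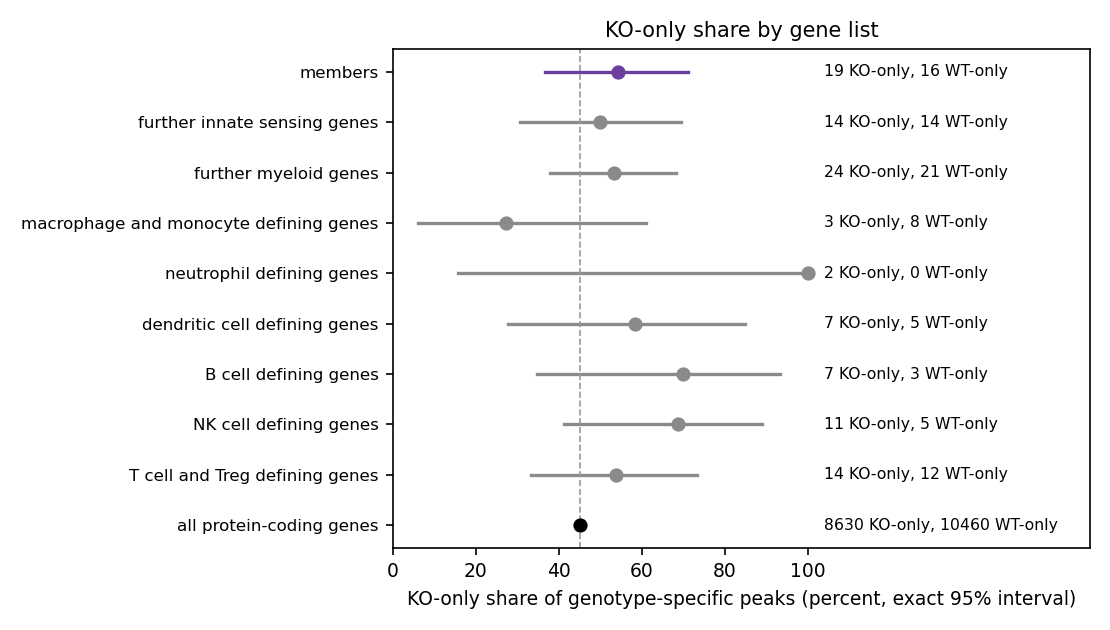
KO-only share of genotype-specific peaks (horizontal axis, percent) for the 32 genes, 8 related lists and all protein-coding genes. Points are shares, bars exact 95% intervals for counting error, and the dashed line the share over all genes, 45.2%. All bars of the lists cross that line, and the bar of the neutrophil list, which rests on 2 peaks, is the widest.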

How the data were processed

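ATAC-seq peaks of 2 groups of 3 samples each were compared. The submitters' processing notes name HISAT2 2.1.0, HOMER 4.10.1, SAMtools 1.3, cutadapt 1.12, Trim Galore 0.4.2, deepTools and FastQC, and build mm10. What each did, the peak threshold, any shift of reads and how replicates were joined is not given in the sources used here. The score that the authors deposited was 1 throughout both lists and holds no height, and the depth is unknown. Nearly all peaks were 219 bp wide in the WT list and 193 bp in the KO list.

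Overlap of at least 1 bp, assignment to genes, places in the row order and exact Clopper-Pearson 95% intervals were computed here in scipy 1.17.1, pandas 2.3.3 and numpy 2.4.6 under Python 3.11.15; matplotlib 3.10.9 drew the figures. A midpoint in several gene bodies counted for each gene. The code was tested on simulated data against bedtools. With no values per replicate, no test was made.

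The members and lists were chosen with earlier results of these data known. All members are named. Coordinates or full counts are given for those with at least 3 genotype-specific peaks, a difference of at least 2, or a gene-end peak in 1 list, and for further members after their values were seen. Each other list names at most 3 genes a direction, those that differ by 2 peaks or more, ties by symbol; markers without a peak, and Ebf1, Cr2, Klrb1c and Gzmb, were named after their values were seen.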

Additional observations from a re-analysis of the deposited data

How the results depend on the processing

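The KO-only share of the genotype-specific peaks of the members was 54.3% and lay between 50% and 60.0% in the 10 other settings tried, all inside its counting interval. That interval is wide and the settings reuse the same peaks, so lying inside it is a weak check. The share over all genes was not recomputed in these settings. The members' share was 50% (10 against 10 peaks) with peaks in or within 10 kb of a gene, and 60.0% on the autosomes. With only the first 50% of each list's rows, counted chromosome by chromosome, it was 50% (2 against 2). Members with more KO-only peaks numbered 10, but 6 within 10 kb and 2 in those first rows; those with more WT-only peaks numbered 8, but 2 in the first rows. Peaks of the members numbered 59 and 62 in the WT and KO lists, 33 and 33 within 10 kb, and 18 and 17 in the first rows, where both settings count fewer peaks by construction. Myd88 had no WT peak and the nearest lay 1.06 kb away, so several of the other settings could not change its KO-only surplus. That surplus kept its direction in all 8 other settings, and was 1 peak in the first rows. At Fcgr1 and Tlr7 the difference was 0 there, and at Irf8 it was 0 there and in both settings limited to 10 kb. A gene-end peak was found at 9 and 14 members with windows of 500 bp and 2 kb, against 13. No paired analysis was possible because each group has 1 peak list for its 3 samples, and for the same reason no replicate could be left out. The lists hold no counts, so what depth limits cannot be measured.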
